A study of Mus musculus with 6 samples.

Results

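Foxf1, its neighbouring noncoding gene Fendrr and 6 other forkhead genes of blood vessels (Foxf2, Foxc1, Foxc2, Foxq1, Foxo1 and Foxp1) were read out by symbol from a table of 23420 mouse genes, and all 8 were found in it. They were selected on their symbols, with the fold changes of tdTom+ over tdTom- in the same libraries already known, so their values between the groups are given as a description and support nothing further. The libraries came from endothelial cells of whole embryos at embryonic day 12.5 with the genotype Csf1r-iCre;RosatdTomato, sorted as PECAM1+ CD45- CD11b- KIT- and split into a tdTom+ and a tdTom- fraction, with 3 libraries each. Both fractions carried the same alleles. The Cre recombinase is driven by the promoter of Csf1r, a receptor gene of the myeloid lineage, so tdTomato marks cells in which it was active or whose ancestors had it active, at any earlier time and in any cell type. The labels name 3 embryos and do not say which embryo gave which library, so p-values measure the spread between these libraries.

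Forkhead proteins bind DNA through a shared winged-helix domain. FOXF1 and FOXF2 are close relatives known from splanchnic mesenchyme and from endothelium, with Foxf1 needed for the vessels of the yolk sac and lung and Foxf2 for the barrier of brain vessels. FOXC1 and FOXC2 act in arterial and lymphatic development, FOXQ1 is a marker of brain endothelium, FOXO1 is held out of the nucleus by the PI3K-AKT pathway and is needed for the embryonic vasculature, and FOXP1 is a transcriptional repressor present in endothelium and many other tissues. Fendrr is a long noncoding RNA known in the mouse from lateral mesoderm, heart and lung development and from its link to the Polycomb and Trithorax chromatin complexes.

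Library totals ran from 8919887 to 11767956 counts, and 13142 genes were abundant enough to test. The core endothelial list, with Pecam1, Cdh5 and Kdr in it, summed to 9560 to 9880 CPM (counts scaled to library size) in tdTom+ and 9430 to 9740 CPM in tdTom- libraries. None of its 15 genes passed edgeR's quasi-likelihood test (1 had an unadjusted p under 0.05, and DESeq2 and limma-voom called 0), and the defining markers of endothelium were present in every library. The liver sinusoidal list summed to 3750 to 4090 CPM in tdTom+ and 1870 to 2050 CPM in tdTom- libraries, and the brain endothelial list to 1710 to 1960 CPM in tdTom+ and 2350 to 2510 CPM in tdTom- libraries. In bulk libraries, fewer cells that express a gene and less RNA of it per cell cannot be told apart.

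Of the 8 genes, 6 lie in a pair of forkhead clusters, and the Fendrr promoter, beside Foxf1, is shown because both genes were far lower in tdTom+ cells. On chromosome 8 (mm10, GENCODE M21), Fendrr (121054882 to 121083110, minus strand) and Foxf1 (121084386 to 121088144, plus strand) start 1276 bases apart and are transcribed away from each other, and Foxc2 (121116171 to 121118895) starts 31785 bases past Foxf1. On chromosome 13, Foxq1 (31556134 to 31560976), Foxf2 (31625816 to 31631403) and Foxc1 (31806633 to 31812476) stand on the plus strand, with 69682 bases from the Foxq1 to the Foxf2 start and 180817 bases from there to the Foxc1 start. Foxo1 lies alone on chromosome 3 (52268336 to 52353221) and Foxp1 on chromosome 6 (98925338 to 99522721). RefSeq promoter windows (GRCm38.p6, 250 bases before to 50 after the start) were at hand for 5 of the 8 genes, and none was at hand for Foxf1, Foxc2 and Foxq1. The core forkhead motif TGTTTAC, or GTAAACA on the other strand, was present in 3.65% of 32851 windows of all genes, and in 1 of the 7 windows of the 5 genes, that of Fendrr. The Fendrr window (chr8:121083061-121083360, minus strand) reaches into the space shared with Foxf1. The Foxf2 window (chr13:31625566-31625865, plus strand) is shown as that of the other gene of the F class, which did not hold the motif. Capitals mark the motif, whose first base is at -129 from the Fendrr start. A match is a description of letters and not a measured binding site.
Fendrr: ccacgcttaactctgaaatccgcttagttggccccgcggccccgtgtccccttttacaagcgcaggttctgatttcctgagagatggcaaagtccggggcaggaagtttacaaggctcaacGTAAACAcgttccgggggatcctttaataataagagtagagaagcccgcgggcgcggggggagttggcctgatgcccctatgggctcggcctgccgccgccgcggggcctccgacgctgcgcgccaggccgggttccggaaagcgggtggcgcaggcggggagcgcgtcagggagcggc
Foxf2: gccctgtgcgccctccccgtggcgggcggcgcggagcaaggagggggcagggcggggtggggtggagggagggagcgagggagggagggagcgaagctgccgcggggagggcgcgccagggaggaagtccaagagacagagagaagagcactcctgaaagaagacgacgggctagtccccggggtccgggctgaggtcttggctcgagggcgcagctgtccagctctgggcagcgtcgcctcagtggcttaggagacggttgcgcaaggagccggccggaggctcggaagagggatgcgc

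Foxf1 and Fendrr were both lower in tdTom+ cells. Foxf1 had 124, 123 and 127 counts in tdTom+ libraries 1 to 3 and 327, 380 and 355 counts in tdTom- libraries 1 to 3. The groups were far apart, and the tdTom+ libraries lay close together, with a coefficient of variation of 4.42% against 13.0% in tdTom-. Foxf1 averaged 11.3 ± 0.501 CPM in tdTom+ cells, against 34.5 ± 4.50 CPM in tdTom- cells (SD, n = 3 each), a log2 fold change of -1.61 ± 0.19 SE, or 3.04-fold lower. Its transcript was counted in every tdTom+ library.

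Fendrr was nearly undetected in tdTom+ cells. It had 0, 0 and 1 counts in tdTom+ libraries 1 to 3 and 42, 44 and 46 counts in tdTom- libraries 1 to 3. Only tdTom+ replicate 3 held a read, and the tdTom- libraries differed little among themselves. The summed counts were 1 in tdTom+ and 132 in tdTom- libraries, and the ratio of tdTom- over tdTom+ was 140.0 with an exact 95% interval of 24.8 to 5580 that covers counting error only. At a floor of 3 counts, a library could miss up to 0.254 to 0.335 CPM of any transcript. Fendrr averaged 4.31 ± 0.741 CPM in tdTom- cells (SD, n = 3).

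The pair did not keep its proportion between the fractions. For each 100 Foxf1 counts there were 0, 0 and 0.787 Fendrr counts in tdTom+ libraries 1 to 3, and 12.8, 11.6 and 13.0 Fendrr counts in tdTom- libraries 1 to 3. The ratio was nearly constant within tdTom- and did not overlap with tdTom+. Summed over the libraries, 374 Foxf1 counts came with 1 Fendrr count in tdTom+, and 1062 Foxf1 counts with 132 Fendrr counts in tdTom- cells. Fendrr and Foxf1 do not overlap in GENCODE M21. Whether the counts were made with the same gene models was not checked.

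Foxf2, the other gene of the F class, was lower too, to a smaller degree. It had 236, 235 and 224 counts in tdTom+ libraries 1 to 3 and 439, 360 and 401 counts in tdTom- libraries 1 to 3. All tdTom+ libraries were below all tdTom- libraries, with tdTom- replicate 2 the closest in CPM. Foxf2 averaged 21.0 ± 0.419 CPM in tdTom+ cells, against 39.3 ± 7.73 CPM in tdTom- cells (SD, n = 3 each), a log2 fold change of -0.90 ± 0.19 SE, or 1.87-fold lower. For each 100 Foxf2 counts there were 52.5, 52.3 and 56.7 Foxf1 counts in tdTom+ libraries and 74.5, 106 and 88.5 Foxf1 counts in tdTom- libraries, again without overlap.

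Foxq1, the brain endothelial marker, was more variable. It had 199, 383 and 239 counts in tdTom+ libraries 1 to 3 and 456, 560 and 591 counts in tdTom- libraries 1 to 3. The groups did not overlap, but tdTom+ replicate 2 stood nearest to the tdTom- libraries, and the coefficient of variation in tdTom+ was 36.4%, where counting error alone gives 6.04%. Foxq1 averaged 24.9 ± 9.08 CPM in tdTom+ cells, against 52.5 ± 11.8 CPM in tdTom- cells (SD, n = 3 each), a log2 fold change of -1.07 ± 0.26 SE, short of the threshold. Without tdTom+ replicate 2 the log2 fold change was -1.40 and passed. The annotation places an antisense gene over Foxq1, and the library kit does not mark strand, so reads of both cannot be told apart.

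Foxc1 and Foxc2 differed less between the fractions. Foxc2 had 260, 190 and 293 counts in tdTom+ libraries 1 to 3 and 311, 438 and 332 counts in tdTom- libraries 1 to 3. In CPM the highest tdTom+ library, at 27.4, was just below the lowest tdTom- library, at 30.1. Foxc2 averaged 22.5 ± 5.0 CPM in tdTom+ cells, against 34.8 ± 4.01 CPM in tdTom- cells (SD, n = 3 each), with a log2 fold change of -0.63 ± 0.20 SE, short of the threshold. Foxc1 had 1093, 1106 and 1082 counts in tdTom+ libraries 1 to 3 and 1263, 1274 and 1196 counts in tdTom- libraries 1 to 3. Its groups did not overlap either, but the distance was small. Foxc1 averaged 99.3 ± 3.07 CPM in tdTom+ cells, against 121 ± 13.0 CPM in tdTom- cells (SD, n = 3 each), with a log2 fold change of -0.29 ± 0.11 SE, short of the threshold.

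Foxo1 and Foxp1, both expressed in many tissues, differed least between the fractions. Foxo1 had 2633, 2489 and 2610 counts in tdTom+ libraries 1 to 3 and 2543, 3186 and 2152 counts in tdTom- libraries 1 to 3. The groups overlapped in CPM, and the log2 fold change was -0.11 ± 0.08 (SE). Foxp1 had 1889, 1853 and 1836 counts in tdTom+ libraries 1 to 3 and 1844, 2367 and 1721 counts in tdTom- libraries 1 to 3. After scaling for depth its groups stood just apart, at 165 to 171 CPM in tdTom+ and 179 to 200 CPM in tdTom- libraries. Its log2 fold change was -0.17 ± 0.08 (SE), and neither gene passed.

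**Figure D1:**
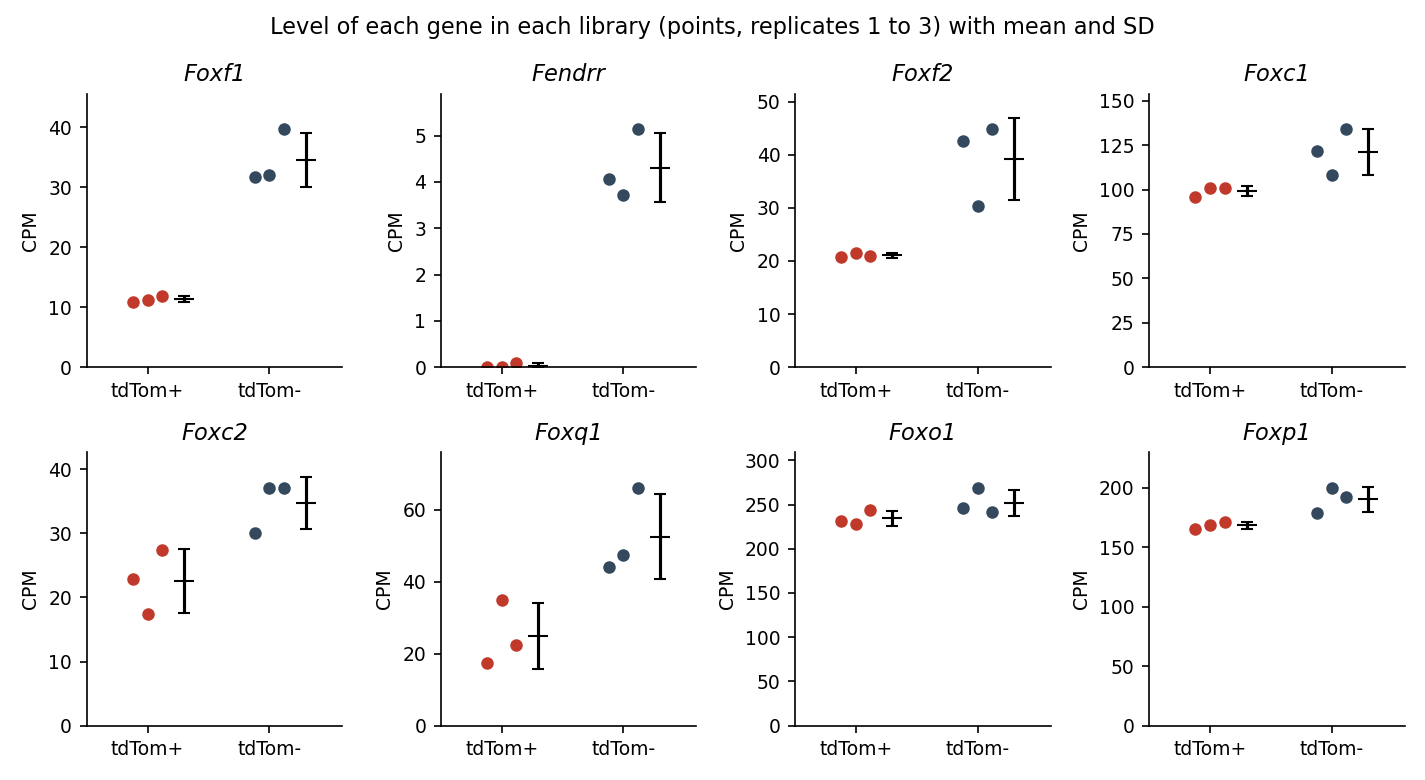
CPM of each of the 8 genes in the 3 tdTom+ (red) and 3 tdTom- (dark blue) libraries, with the mean and SD beside the points and every axis starting at 0. Foxf1 lies at 10.9 to 11.9 CPM in tdTom+ and 31.7 to 39.7 CPM in tdTom- libraries, Fendrr is at or near 0 in tdTom+, and Foxo1 is the one gene whose groups overlap.

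In the test across all genes (edgeR's quasi-likelihood test, adjusted p under 0.05), 3 of the 8 genes were called lower, Foxf1, Fendrr and Foxf2, and 0 were called higher (0 at an unadjusted p under 0.05 and 0 by DESeq2 or limma-voom). Of all 13142 genes tested, 0.814% were called lower and 0.769% higher, 1.58% in all. The median log2 fold change was -0.76 over the 8 genes and -0.00026 over all genes tested, and 7 of the 8 genes had groups that did not overlap, against 17.2% of all genes tested (9.35% lower and 7.88% higher in tdTom+). The 8 genes were picked with these values known, so nothing is read from these shares. Fendrr also passed the count filter only through its tdTom- libraries. Foxf1 was called lower in every alternative run. The Fendrr call ended when tdTom- replicate 1, 2 or 3 was left out, and the Foxf2 call ended with limma-voom and when any library but tdTom- replicate 2 was left out. Leaving out tdTom- replicate 1 or 3 reduced the called genes of the 8 to 1, and leaving out tdTom+ replicate 1, 2 or 3 or tdTom- replicate 2 left 2, 3, 2 and 2 of them called.

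Scaled by exon length, which allows genes to be compared, the order of the levels shifted with the fraction. In tdTom+ cells Foxo1 was highest with 27.0 CPM per kb, followed by Foxc1 with 17.0, Foxp1 with 12.3, Foxf2 with 8.90, Foxc2 with 8.26, Foxq1 with 5.15, Foxf1 with 4.69 and Fendrr with 0.00937 CPM per kb. In tdTom- cells the order was Foxo1 with 29.1, Foxc1 with 20.7, Foxf2 with 16.6, Foxf1 with 14.3, Foxp1 with 13.8, Foxc2 with 12.8, Foxq1 with 10.8 and Fendrr with 1.30 CPM per kb. Foxf1 thus stood below Foxp1 without overlap in tdTom+ libraries (at most 4.91 CPM per kb, with Foxp1 at most 12.5) and level with it in tdTom- libraries. In tdTom+ the neighbouring genes from Foxf2 down to Foxf1 overlapped in their ranges, and in tdTom- those from Foxc1 down to Foxq1 did. Lengths are the merged exons of all GENCODE transcripts, which are at least as long as any one transcript.

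In the rest of the forkhead family 1 of 16 tested genes passed, and 2 of the tested genes had no read in tdTom+ cells. All 37 other forkhead genes sought were in the table and 16 were tested. Of these 1 was called lower and 0 were called higher, against 0.814% and 0.769% of all genes tested. The median log2 fold change of the 16 genes was -0.17, and the same with both genes without a tdTom+ read set to their bounds. Foxh1, a partner of SMAD proteins in Nodal signalling, had 0 counts in every tdTom+ library and 21, 34 and 34 counts in tdTom- libraries 1 to 3. Setting the tdTom+ sum to the floor of 3 counts makes it at least 31.5-fold lower (adjusted p = 0.0267 in edgeR). Foxr1, a forkhead gene known from the germ line, had 0 counts in every tdTom+ library and 11, 11 and 13 counts in tdTom- libraries, at least 12.4-fold lower, and did not pass (adjusted p = 0.117 in edgeR). The germ cell gene Dazl, picked after its values were seen, likewise had 0 counts in all tdTom+ libraries and 183, 255 and 279 counts in tdTom- libraries 1 to 3, and the part of germ cells in the Foxh1 result was not tested. The Foxh1 call was lost without replicate 1 of tdTom+ (adjusted p = 0.0655) and without tdTom- replicate 1 (0.123), 2 (0.152) or 3 (0.168). Foxh1 and Foxr1 passed the count filter only through their tdTom- libraries, so only a lower value in tdTom+ could be found. Their adjusted p is given as a description and supports nothing further.

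Family members with wider roles were near the middle of the table. Foxm1, which drives genes of mitosis, averaged 65.8 CPM in tdTom+ cells, against 78.8 CPM in tdTom- cells, with a log2 fold change of -0.26 ± 0.14 SE (adjusted p = 0.558 in edgeR). Foxn3 averaged 102 CPM in tdTom+ cells, against 101 CPM in tdTom- cells, and Foxk2 80.2 CPM in tdTom+ cells, against 78.5 CPM in tdTom- cells. Of the close relatives of the 8 genes, Foxo3 had a log2 fold change of 0.91 ± 0.75 and Foxp4 one of -0.15 ± 0.26 (SE), neither past the threshold. Foxl2, which brain vessels share with Foxf2 and Foxq1, had -0.36 ± 0.35 SE (adjusted p = 0.797 in edgeR). Foxd1, a gene of stromal progenitors in the kidney, had -1.70 ± 1.05 SE (adjusted p = 0.652 in edgeR) at 25 counts in tdTom+ libraries, against 74 counts in tdTom- libraries. A further 21 forkhead genes were too low to test, 7 of them with no count in any library.

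**Figure D2:**
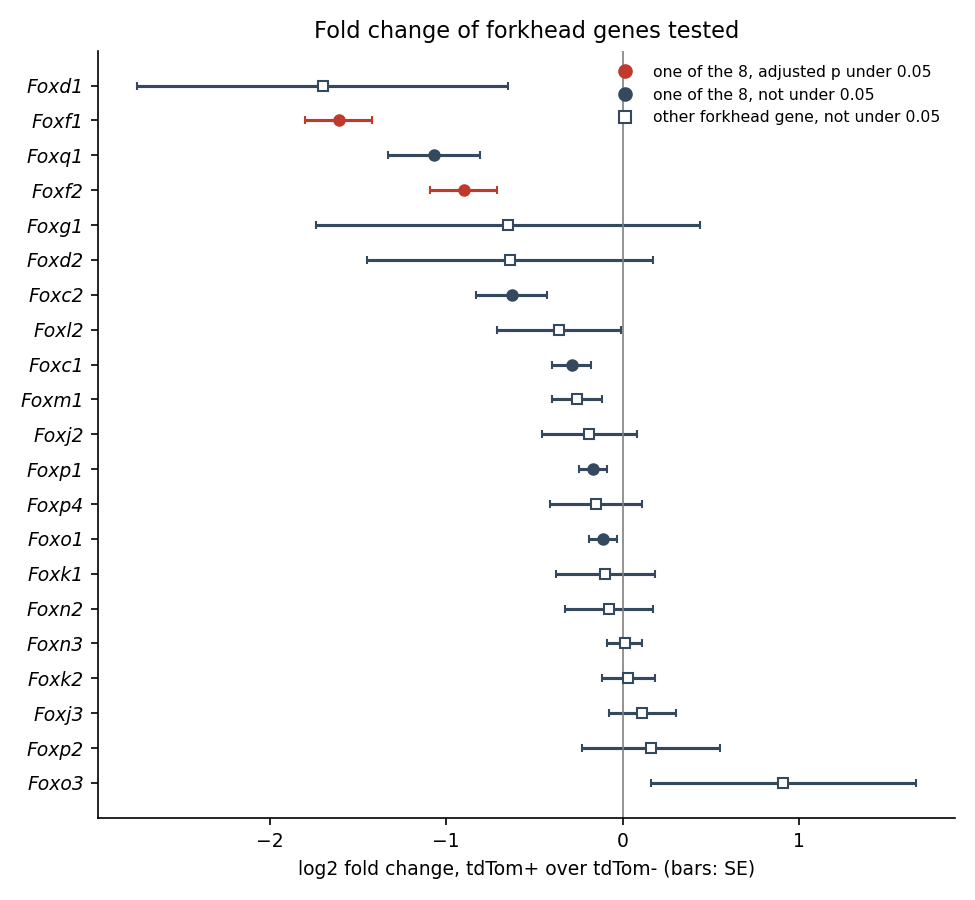
Log2 fold change of tdTom+ over tdTom- with its SE for the tested forkhead genes, without Fendrr, Foxh1 and Foxr1, whose tdTom+ libraries held at most 1 count. Foxf1 at -1.61 and Foxf2 at -0.90 are the called genes in red, and Foxo1 at -0.11 and Foxn3 at 0.01 lie close to 0.

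Of the tested genes beside the forkhead clusters, 1 was called higher and 0 lower, against 0.769% and 0.814% of all genes tested. Within 500 kb of the Foxf1 start, 10 genes were tested, of which Foxf1 and Fendrr were called lower and 1 gene was called higher. That gene was Irf8, an interferon regulatory factor needed in the myeloid lineage, which starts 348028 bases before Foxf1 at 120736358 on chromosome 8. Irf8 had 461, 348 and 715 counts in tdTom+ libraries 1 to 3 and 162, 141 and 148 counts in tdTom- libraries 1 to 3. Every tdTom+ library was above every tdTom- library. It averaged 46.3 ± 18.2 CPM in tdTom+ cells, against 14.7 ± 2.46 CPM in tdTom- cells (SD, n = 3 each), with a log2 fold change of 1.66 ± 0.27 SE (adjusted p = 0.0144 in edgeR). The call was lost without tdTom- replicate 1 (adjusted p = 0.0653), 2 (0.0791) or 3 (0.0784).

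For each 100 Irf8 counts there were 26.9, 35.3 and 17.8 Foxf1 counts in tdTom+ libraries and 202, 270.0 and 240.0 Foxf1 counts in tdTom- libraries, so Foxf1 had fewer counts than its neighbour in tdTom+ and more in tdTom- libraries. The macrophage and myeloid list, to which Irf8 was not assigned, summed to 37.0 to 108 CPM in tdTom+ and 29.3 to 47.8 CPM in tdTom- libraries. Of its 13 genes in the table, 10 were tested and 0 passed with edgeR, DESeq2 or limma-voom (2 had an unadjusted p under 0.05). Of the tested genes 9 had a log2 fold change above 0, with a median of 0.42. Among genes of proteins sorted against, Ptprc had 0, 0 and 4 counts in tdTom+ libraries, against 19, 0 and 22 counts in tdTom- libraries. Itgam had 0, 4 and 6 counts in tdTom+ libraries, against 12, 0 and 5 counts in tdTom- libraries. Kit, whose protein was sorted against too, had 950, 1023 and 890 counts in tdTom+ libraries, against 1159, 1435 and 1108 counts in tdTom- libraries. The overlap of the myeloid list sums rested on Mpo, a granule enzyme gene picked after its values were seen, with 0, 64.7 and 0.0934 CPM in tdTom+ libraries 1 to 3 and 14.9, 3.89 and 2.01 CPM in tdTom- libraries 1 to 3. Without Mpo the list summed to 37.0, 43.4 and 51.7 CPM in tdTom+ and 32.9, 25.5 and 31.9 CPM in tdTom- libraries, with no overlap. Mpo was left out for its values, so nothing is read from that separation. The part of myeloid cells in the Irf8 result was not tested.

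Mthfsd, a gene between Foxf1 and Foxc2 whose product resembles a folate enzyme, had 323, 481 and 456 counts in tdTom+ libraries, against 345, 451 and 339 counts in tdTom- libraries 1 to 3. Its log2 fold change was 0.07 ± 0.19 SE (adjusted p = 0.945 in edgeR), with a sign that turned without tdTom+ replicate 2 or 3. Foxl1, the last forkhead gene of that cluster and a marker of gut mesenchyme, had 1, 0 and 7 counts in tdTom+ libraries, against 12, 1 and 2 counts in tdTom- libraries and was too low to test. Fbxo31, at 494 kb past the Foxf1 start, had a log2 fold change of -0.07 ± 0.15, and Gins2, Cox4i1, Emc8 and 1190005I06Rik on the other side ranged from -0.91 ± 0.87 to 0.18 ± 0.12 (SE), none past the threshold.

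Next to Foxf2 stands another noncoding gene. The lincRNA gene 1700018A04Rik starts at -0.024 kb from the Foxf2 start on the opposite strand, and was picked after its values were seen, as the counterpart of Fendrr in that cluster. It had 18, 7 and 15 counts in tdTom+ libraries, against 15, 8 and 13 counts in tdTom- libraries 1 to 3. The groups overlapped throughout, with a log2 fold change of 0.02 ± 0.80 SE (adjusted p = 0.998 in edgeR) that leaves room for a change of the size of that of Foxf2. Gmds, an enzyme of fucose synthesis next to Foxc1, had -0.12 ± 0.13, Exoc2, a subunit of the exocyst, 0.18 ± 0.11, and the phosphatase gene Dusp22 -0.03 ± 0.15 (SE), none past the threshold. The serpin gene Serpinb1a had -2.11 ± 0.84 SE (adjusted p = 0.37 in edgeR). Irf4 had no count in any library, and Hus1b and Mylk4 were too low to test.

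**Figure D3:**
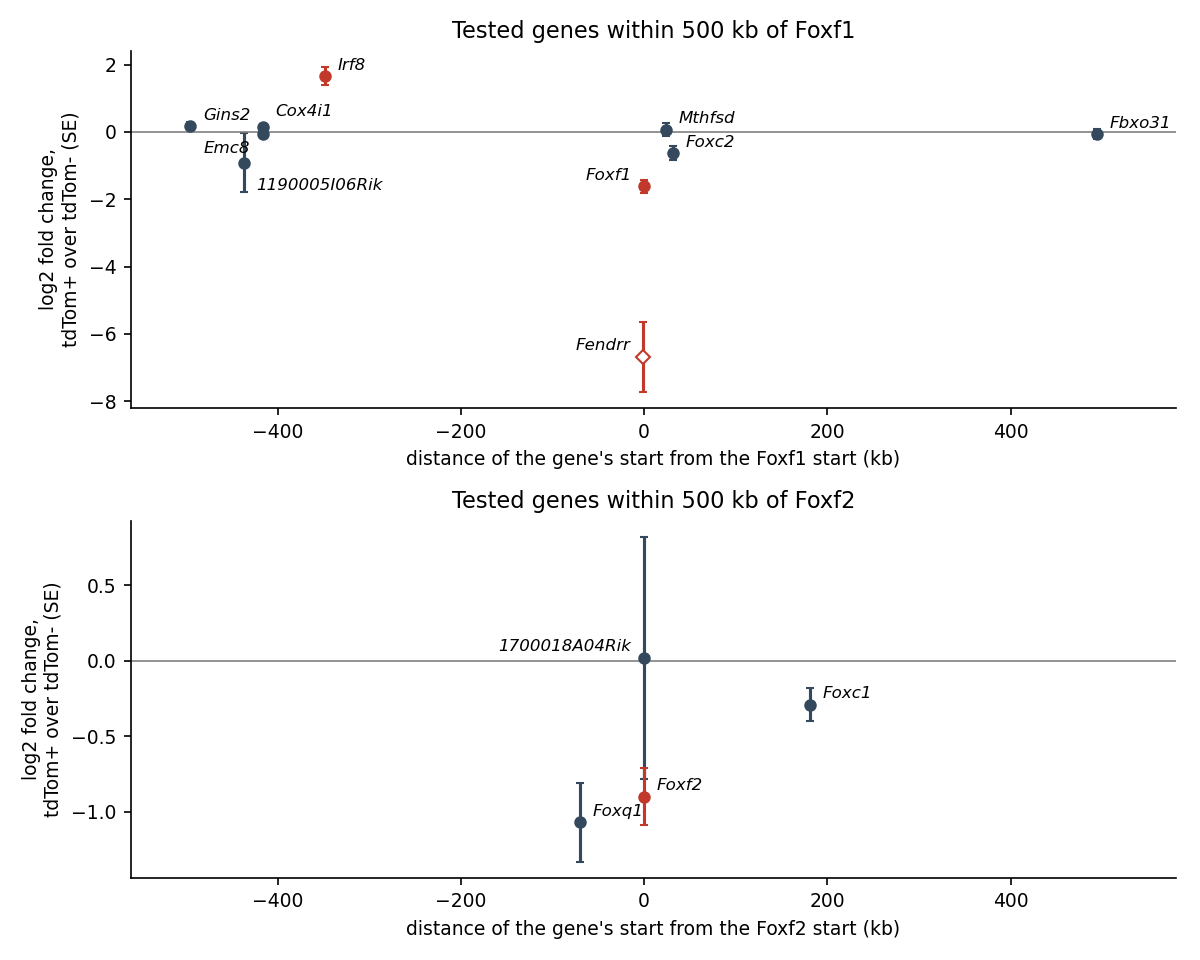
Log2 fold change of tdTom+ over tdTom- with its SE for each tested gene whose start lies within 500 kb of the Foxf1 start (upper panel) or the Foxf2 start (lower panel), by distance, with called genes in red. Fendrr (open diamond) is a fitted value from 1 count in tdTom+, Irf8 at 1.66 is above 0, and Mthfsd between Foxf1 and Foxc2 is at 0.07.

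The genes most like each of the 8 in their pattern were sought by Pearson's r of log2 CPM over the 6 libraries, among about 9941 genes whose log2 CPM averaged 3 or more. For Fendrr, the gene most like it was Foxf1, with r = 0.996, followed by Rsbn1 with 0.993 and Adamtsl2 with 0.992. For Foxf1 they were Adamtsl2 with 0.988, Rsbn1 with 0.986 and the amino acid transporter gene Slc7a1 with 0.984, since Fendrr itself was below the level required. Adamtsl2, which encodes a secreted glycoprotein of the microfibril network, fell, with a fitted log2 fold change of -0.72 ± 0.13 SE (adjusted p = 0.0207 in edgeR). Adamtsl2 was picked for its likeness over the same libraries, so its adjusted p is a description and supports nothing further. When single libraries were left out, its call held only without tdTom+ replicate 3 (0.0509 to 0.121 for the other libraries). The genes most like Foxf2 were Ankzf1, the potassium channel gene Kcna5 and BC003965 (r = 0.99, 0.989 and 0.988), and Foxf2 was itself among the 3 most like Foxc1 (r = 0.965, after Rusc1 with 0.968 and Mapk3 with 0.967).

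Those most like Foxc2 were Srpr, Mphosph8 and the homeobox gene Hoxa9 (r = 0.99, 0.987 and 0.987), and those most like Foxq1 were Isyna1, C87436 and Ndel1 (r = 0.991, 0.99 and 0.989). For Foxo1 they were Dync1li2, Ubr3 and Akap2 (r = 0.988, 0.983 and 0.981), and for Foxp1 Hgs, Dedd2 and Slc15a4 (r = 0.995, 0.988 and 0.984). All of these r share the same 6 libraries and the same split into groups, and they are given as a description.

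Genes of the hedgehog pathway, the signal upstream of Foxf1 in mesenchyme, were read as a list. Of 14 genes 11 were tested and 1 was called lower, against 0.814% of all genes tested, with a median log2 fold change of -1.0. Gli3, a transcription factor gene of the pathway that acts mainly as a repressor, had 15.6, 15.4 and 14.5 CPM in tdTom+ libraries 1 to 3 and 28.0, 32.0 and 30.6 CPM in tdTom- libraries 1 to 3. The groups were well apart, and Gli3 fell, with a fitted log2 fold change of -1.0 ± 0.18 SE (adjusted p = 0.0229 in edgeR). Its call was lost without replicate 1 of tdTom+ (adjusted p = 0.0641) and without tdTom- replicate 1 (0.0989), 2 (0.131) or 3 (0.12).

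Dhh and Gas1 did not pass, although Dhh was called without tdTom+ replicate 2 and Gas1 without tdTom- replicate 2. The ligand gene of endothelium, Dhh, averaged 14.3 ± 5.46 CPM in tdTom+ cells, against 30.6 ± 3.61 CPM in tdTom- cells (SD, n = 3 each), with a log2 fold change of -1.10 ± 0.28 SE (adjusted p = 0.0966 in edgeR). The co-receptor gene Gas1 had -1.35 ± 0.30 SE (adjusted p = 0.0581 in edgeR). Ptch1, the main receptor gene, averaged 11.8 ± 4.22 CPM in tdTom+ cells, against 11.7 ± 1.93 CPM in tdTom- cells (SD, n = 3 each), with a log2 fold change of 0.01 ± 0.32 SE. Gli1, the usual readout of active signalling, was too low to test, at 0.788, 0 and 0 CPM in tdTom+ and 0.678, 0.761 and 1.01 CPM in tdTom- libraries.

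Foxf1 is known from mesenchyme as well as endothelium, so mesenchymal transcripts are given beside it. The mesenchyme and mural list summed to 297, 194 and 738 CPM in tdTom+ libraries 1 to 3 and 1290, 546 and 741 CPM in tdTom- libraries 1 to 3. Of its 20 genes 18 were tested, 17 with a log2 fold change below 0, a median of -0.79 and 0 past edgeR's threshold, with 2 at an unadjusted p under 0.05, 1 called lower by DESeq2 (Lum) and 0 by limma-voom. The lung and gut mesenchyme list, from organs where Foxf1 is known to be high, summed to 122 to 137 CPM in tdTom+ and 141 to 175 CPM in tdTom- libraries, with 9 of 12 genes tested, 9 below 0, a median of -0.68 and 0 past the threshold of edgeR, DESeq2 or limma-voom (1 at an unadjusted p under 0.05). Its highest genes were Hlx, at a mean of 82.1 CPM in tdTom+ and 90.9 CPM in tdTom-, and Bmp4, at 31.8 and 35.4 CPM. In it the groups did not overlap for Wnt2, a ligand gene of lung mesenchyme, at 1.75, 1.55 and 0 CPM in tdTom+ and 4.94, 5.33 and 5.03 CPM in tdTom- libraries (log2 fold change -2.19 ± 0.91 SE, adjusted p = 0.403 in edgeR). Bmp4 was lower without overlap too (log2 fold change -0.15 ± 0.15 SE), as was Nkx3-2, which was too low to test. Hhip, also too low to test, was higher without overlap, at 2.28, 0.914 and 1.12 CPM in tdTom+ and 0.194, 0 and 0.894 CPM in tdTom- libraries. Of the 9 tested genes of the list, 2 had groups that did not overlap, against 17.2% of all genes tested. Nothing is read from these separations. The part of mesenchymal cells, of lung, gut or elsewhere, in the Foxf1 and Fendrr values was not tested.

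Vascular genes linked to Foxf1 in the mouse made up a further list. Of the 16 genes, all tested, 2 were called lower and 1 higher, against 0.814% and 0.769% of all genes tested. The median log2 fold change was -0.25, with 13 genes below 0 and 3 above. At an unadjusted p under 0.05 in edgeR, 7 were lower and 1 higher. DESeq2 called 5 lower and 1 higher, and limma-voom 2 lower and 1 higher. Groups did not overlap for 9 of the 16, against 17.2% of all genes tested. Kit, whose protein the sort selected against in both fractions, had a log2 fold change of -0.46 ± 0.10 SE (adjusted p = 0.0581 in edgeR) and was called lower with DESeq2. The growth factor receptor genes Kdr, Flt1 and Tek had log2 fold changes of 0.07 ± 0.08, 0.08 ± 0.07 and -0.01 ± 0.10 (SE), none past the threshold. Pdgfb, the endothelial ligand that recruits pericytes, had 68.2, 61.8 and 69.8 CPM in tdTom+ and 93.5, 94.7 and 111 CPM in tdTom- libraries. It fell, with a fitted log2 fold change of -0.58 ± 0.12 SE (adjusted p = 0.0366 in edgeR), and its call was lost on leaving out each library in turn (0.0503 to 0.173). Cd34, a sialomucin gene of endothelial and progenitor cells, fell too (log2 fold change -0.35 ± 0.06 SE, adjusted p = 0.0254 in edgeR), and this call held only without tdTom+ replicate 2 when single libraries were left out (0.0635 to 0.121 without the other libraries). Itgb3, the gene that rose, encodes an integrin subunit that platelets also carry. The megakaryocyte and platelet list, which includes Itgb3, summed to 290.0 to 536 CPM in tdTom+ and 37.9 to 55.9 CPM in tdTom- libraries. The part of platelets and megakaryocytes in the Itgb3 result was not tested.

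Among genes linked to Foxc1 and Foxc2 as many were called lower as higher. Of the 13 genes, all tested, 2 were called lower, the Notch ligand gene Jag1 and the connexin gene Gja4, and 2 higher, Itgb3 and the lymphatic receptor gene Flt4, with a median of -0.17. Over all genes tested, 0.814% were called lower and 0.769% higher. DESeq2 called 4 genes of the list lower and 3 higher, and limma-voom 3 lower and 2 higher. The calls of Jag1 (log2 fold change -1.03 ± 0.13 SE, adjusted p = 0.00435 in edgeR) and Itgb3 (3.13 ± 0.32 SE, adjusted p = 0.00094 in edgeR) stood whichever library was left out. That of Flt4 (0.42 ± 0.07 SE, adjusted p = 0.0191 in edgeR) held only without tdTom+ replicate 3 (0.058 to 0.106 for the other libraries), whereas that of Gja4 (-0.70 ± 0.13 SE, adjusted p = 0.0258 in edgeR) was lost without tdTom+ replicate 1 or any tdTom- library (0.0668 to 0.124). Dll4, a Notch ligand gene reported as a direct target of both factors, averaged 190.0 ± 7.28 CPM in tdTom+ cells, against 193 ± 19.7 CPM in tdTom- cells (SD, n = 3 each), a log2 fold change of -0.02 ± 0.09 SE. Hey2, an arterial repressor gene also reported as a target, had 1.66, 6.95 and 1.49 CPM in tdTom+ and 18.9, 19.2 and 12.7 CPM in tdTom- libraries. Its groups were apart, but the log2 fold change of -2.33 ± 0.54 did not pass (SE, edgeR adjusted p = 0.0653). Both Hey2 and Jag1 also stand in the arterial list, of whose 16 genes, all tested, 5 were called lower and 0 higher, with sums of 1550 to 1740 CPM in tdTom+ and 2050 to 2560 CPM in tdTom- libraries. These calls stand against 0.814% and 0.769% of all genes tested. DESeq2 called 9 arterial genes lower and limma-voom 4, with 0 higher by either. Prox1, the lymphatic regulator gene, had a log2 fold change of 0.64 ± 0.15 SE (adjusted p = 0.0653 in edgeR).

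Foxf2 and Foxq1 stood beside a brain endothelial list that was lower in tdTom+ cells. Of its 17 genes, all tested, 5 were called lower (Slc2a1, Mfsd2a, Lsr, Apcdd1 and Slc7a5), 0 were called higher and 16 had a log2 fold change below 0, with a median of -0.61. Over all genes tested, 0.814% were called lower and 0.769% higher. DESeq2 called 7 genes of the list lower and limma-voom 5, with 0 higher by either. The list was chosen with earlier results of these data known, so nothing further is read from these counts. Lsr, which encodes a protein of tricellular junctions, averaged 38.3 ± 4.70 CPM in tdTom+ cells, against 84.4 ± 3.05 CPM in tdTom- cells (SD, n = 3 each), with a log2 fold change of -1.14 ± 0.13 SE (adjusted p = 0.00187 in edgeR), and its call stood whichever library was left out (adjusted p from 0.00433 to 0.0226). The calls of Slc2a1, Slc7a5 and Mfsd2a were each lost without tdTom+ replicate 1 or without tdTom- replicate 3 (0.0673 to 0.135), and some without other libraries too. Library by library, the list was highest among tdTom+ in replicate 2, at 1960 CPM against 1710 and 1800 CPM, and so was Foxq1. Lef1, a Wnt effector that marks brain vessels together with Foxf2 and Foxq1, averaged 42.5 ± 6.57 CPM in tdTom+ cells, against 61.6 ± 8.44 CPM in tdTom- cells (SD, n = 3 each), with a log2 fold change of -0.54 ± 0.16 SE (adjusted p = 0.172 in edgeR). Apcdd1, a Wnt inhibitor and target gene, fell to 61.7 ± 12.4 CPM in tdTom+, against 110.0 ± 18.7 CPM in tdTom- cells (SD, n = 3 each, edgeR adjusted p = 0.0348). The part of brain vessels in the Foxf2 and Foxq1 values was not tested.

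**Figure D4:**
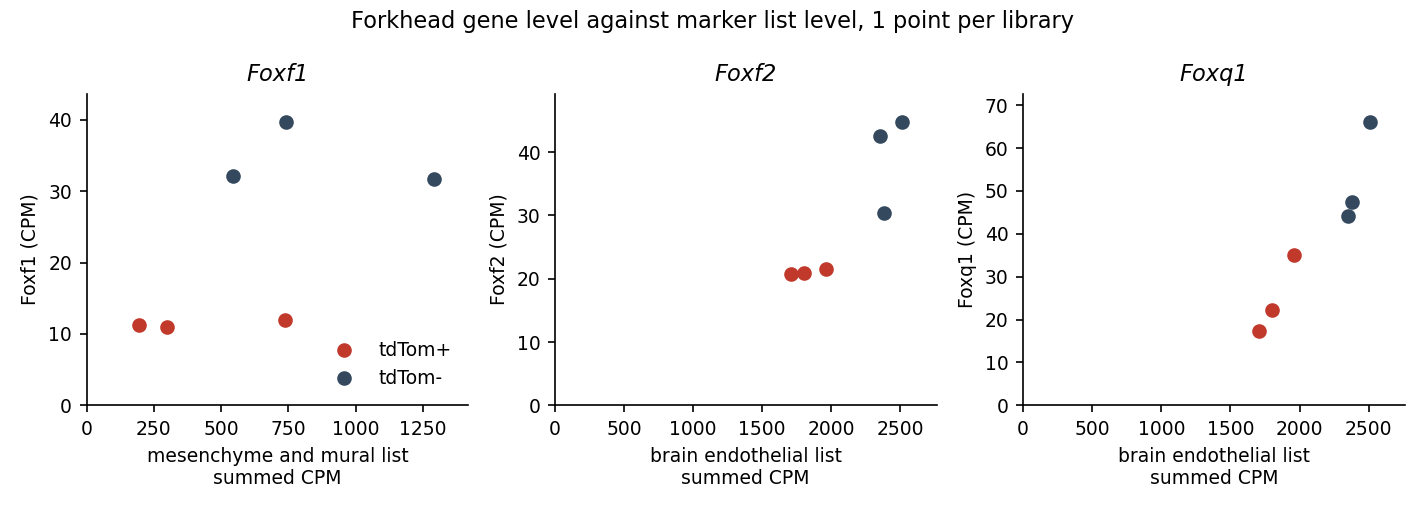
CPM of Foxf1 against the summed CPM of the mesenchyme and mural list, and of Foxf2 and Foxq1 against that of the brain endothelial list, with 1 point for each of the 3 tdTom+ (red) and 3 tdTom- (dark blue) libraries. The mesenchymal sums are 297, 194 and 738 CPM in tdTom+ and 1290, 546 and 741 CPM in tdTom- libraries, and the brain endothelial sums lie at 1710 to 1960 CPM in tdTom+ and 2350 to 2510 CPM in tdTom- libraries.

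No gene of the lists around FOXO1 or of the chromatin complexes linked to Fendrr passed edgeR's quasi-likelihood test. The list of genes linked to FOXO factors, which holds target genes of the metabolic and cell cycle response, had 23 genes tested and a median log2 fold change of 0.03, with 2 higher and 2 lower at an unadjusted p under 0.05. Pdk4, which restrains pyruvate oxidation and is a classic FOXO target, was the nearest to the threshold with 21.5, 13.4 and 34.3 CPM in tdTom+ and 11.7, 8.03 and 9.17 CPM in tdTom- libraries (log2 fold change 1.26 ± 0.34 SE, adjusted p = 0.12 in edgeR). It passed without tdTom+ replicate 2 (adjusted p = 0.0316) and was the 1 gene of the list that DESeq2 called, while limma-voom called 0. Pik3ip1, an inhibitor of PI3K, had -0.86 ± 0.27 and the nitric oxide synthase gene Nos3 -0.26 ± 0.09 (SE), while Bcl2l11, which promotes apoptosis, had 0.45 ± 0.16 (SE).

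The PI3K-AKT list had 20 genes tested and a median of -0.02, with 1 at an unadjusted p under 0.05 and 0 called by DESeq2 or limma-voom. Akt1, a kinase gene of the pathway, averaged 491 ± 15.3 CPM in tdTom+ cells, against 493 ± 16.0 CPM in tdTom- cells (SD, n = 3 each), and the catalytic subunit gene Pik3cb had a log2 fold change of -0.86 ± 0.27 SE (adjusted p = 0.197 in edgeR). Of 13 genes of the Polycomb and Trithorax complexes 11 were in the table and tested, with a median of -0.01, and 0 of them reached an unadjusted p under 0.05. Ezh1, a histone methyltransferase gene, had 0.36 ± 0.20 SE (adjusted p = 0.588 in edgeR) and the cofactor gene Jarid2 -0.28 ± 0.17 SE (adjusted p = 0.651 in edgeR).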

How the data were processed

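Endothelial cells were sorted, their RNA was copied and amplified with SMART-seq v4 and libraries were made with Nextera XT, per the labels' protocols. The authors deposited whole-number counts per gene. Per the submitters' processing notes, the tools were featureCounts 1.4.6, DESeq2, STAR 2.5.2b, Trimmomatic 0.36.4 and Picard 2.7.1.1, on the build mm10. No source used here gives the strand setting. The table's 6 normalized columns were not used. Amplified reads carry no molecular identifiers, so counting intervals and floors cover counting error only.

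The 3 tdTom+ and 3 tdTom- libraries were compared with edgeR 4.0.16 (R 4.3.3; TMM factors, filterByExpr with a count minimum of 10, robust quasi-likelihood test, two-sided), and p was adjusted by Benjamini-Hochberg across 13142 genes (threshold 0.05). SE is the size of the log2 fold change over the root of F. CPM is the count scaled by the library's total after TMM factors. The fit was tested on simulated data, where it recovered 76% of 2-fold and 34% of 1.5-fold changes, with 1.3% of calls false. A gene short of the threshold is therefore not shown to be unchanged. Alternatives were DESeq2 1.42.0, limma-voom 3.58.1, relative log expression factors, no filter, a count minimum of 25, a replicate block and leaving out each library. The members and gene lists were chosen with earlier results of these data known. Text names were set by rule: the 8 genes, up to 4 genes of lowest p per list, called forkhead genes, cluster neighbours and the 3 genes most like each; others were added after their values were seen. Gene positions are from GENCODE M21. Results for a few genes of the lists are not reported here.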

Additional observations from a re-analysis of the deposited data

How the results depend on the processing

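Over 114 named genes and the alternatives, 1359 values were computed, of which 1216 kept direction and side of the threshold, 102 lost the call, 33 gained it and 8 changed sign. All 8 sign changes were in genes that did not pass: Mthfsd (-0.04 to 0.24 over the libraries left out) had -0.04 without tdTom+ replicate 2 and -0.01 without tdTom+ replicate 3, Dusp22 had 0.01 without tdTom+ replicate 3 and 0.04 without tdTom- replicate 1, and 1700018A04Rik (-0.27 to 0.32) had -0.22, -0.1 and -0.27 without tdTom+ replicate 1, tdTom+ replicate 3 and tdTom- replicate 2 and -0.0013 with the replicate block. DESeq2 called 211 genes higher and 291 lower, against 101 and 107 with edgeR, and 2 other forkhead genes and 19 genes of the lists linked to the 8 genes lower, against 1 and 10. With the stricter count minimum 0 other forkhead genes were called lower, since Foxh1 was not tested. The causes of the other changes were not tested. When each library was left out in turn, 37 to 97 genes were called higher and 25 to 92 lower, with 1 to 3 of the 8 genes, 0 to 1 other forkhead genes and 2 to 11 genes of the linked lists lower, and 1 to 3 of those lists higher. Foxq1 was called lower with DESeq2, without a filter, with the replicate block and without tdTom+ replicate 2.

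Libraries with the same number had deviations from their group means that correlated at 0.11, 0.089 and 0.16 for numbers 1, 2 and 3, and every library correlated best with its own number, a hint from the data and not the design. With the replicate block 128 genes were called higher and 167 lower. Genes with few counts limit the precision: Fendrr, Foxh1 and Foxr1 had at most 1 count in all tdTom+ libraries together.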
